A study of Mus musculus with 11 samples.

Results

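The genes described here were 6 matrix metalloproteinases (Mmp2, Mmp9, Mmp12, Mmp13, Mmp14 and Mmp19) and 3 tissue inhibitors of metalloproteinases (Timp1, Timp2 and Timp3). They were taken by name from the 31053 genes of spatial transcriptomic count tables of mouse liver, and all 9 were found. The 11 sections came from uninjured liver (0 h, sections 2, 3 and 4) and from liver taken 24 h (sections A and B), 36 h (sections A and B) and 48 h (sections A to D) after an overdose of acetaminophen, a drug toxic to hepatocytes (condition POD in the labels). By the study's methods these were C57BL/6JCrl mice, male unless stated otherwise and young adult, and the injured mice were fasted and then given acetaminophen once into the peritoneum. The labels name no transgene or deletion in any group. Whether the uninjured mice were fasted too is not given in the sources used here. The methods count 1 mouse liver per time point, so the sections of a time point are not separate animals. A p-value between time points measures only the spread between sections. For differences taken within sections it measures only how these varied from section to section. No p-value measures the spread between animals.

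Matrix metalloproteinases are zinc-dependent endopeptidases that cut collagens, elastin, laminins and many cell-surface and signalling proteins. Most are secreted as inactive proenzymes and are held in check by the tissue inhibitors, which bind the active site. In acutely injured liver they are known products of macrophages, neutrophils, stellate cells and endothelium, and take part in clearing necrotic tissue and in remodelling the scar matrix.

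In GENCODE M21 (GRCm38, the same assembly as the mm10 build of the tables) Mmp12 (ENSMUSG00000049723) spans chr9:7344381-7369499 and Mmp13 (ENSMUSG00000050578) chr9:7272514-7283331, 61.0 kb apart on the plus strand of chromosome 9. Timp1 (ENSMUSG00000001131, chrX:20870166-20874735) and Timp3 (ENSMUSG00000020044, chr10:86300372-86349506) each lie opposite a synapsin gene, Syn1 and Syn3, on the other strand. Timp2 (ENSMUSG00000017466, chr11:118301069-118355740, minus strand) shares its strand with Cep295nl, and reads that fell in both could not be assigned to either. The remaining members were Mmp2 (ENSMUSG00000031740, chr8:92827291-92853420), Mmp9 (ENSMUSG00000017737, chr2:164940780-164955850), Mmp14 (ENSMUSG00000000957, chr14:54431612-54445364) and Mmp19 (ENSMUSG00000025355, chr10:128790910-128800824).

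The promoters of Mmp12, Mmp13 and Timp1 are printed because these were the 3 members that were higher than at 0 h at every time point. Each window runs from 250 bases before to 50 bases after a RefSeq transcript start (GRCm38.p6, all on the plus strand), and Mmp12 has a pair of annotated starts. Capitals mark the letters TGANTCA, the core of an AP-1 element, which reads as itself on the other strand. Such a match was in 2565 of 32851 promoter windows of this length, or 7.81%.
Mmp13 (chr9:7272264-7272563): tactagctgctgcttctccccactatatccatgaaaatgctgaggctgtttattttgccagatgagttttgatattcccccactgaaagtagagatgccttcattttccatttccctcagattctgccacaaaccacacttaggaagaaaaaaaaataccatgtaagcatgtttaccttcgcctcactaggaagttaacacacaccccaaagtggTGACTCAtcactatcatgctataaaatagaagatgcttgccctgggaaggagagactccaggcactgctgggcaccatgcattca
Mmp12, downstream start (chr9:7347124-7347423): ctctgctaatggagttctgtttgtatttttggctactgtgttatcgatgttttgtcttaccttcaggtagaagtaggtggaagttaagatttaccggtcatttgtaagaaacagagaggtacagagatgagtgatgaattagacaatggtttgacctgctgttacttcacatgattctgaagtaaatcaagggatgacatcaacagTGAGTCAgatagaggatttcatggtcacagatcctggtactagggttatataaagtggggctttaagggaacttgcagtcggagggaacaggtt
Mmp12, upstream start (chr9:7344147-7344446): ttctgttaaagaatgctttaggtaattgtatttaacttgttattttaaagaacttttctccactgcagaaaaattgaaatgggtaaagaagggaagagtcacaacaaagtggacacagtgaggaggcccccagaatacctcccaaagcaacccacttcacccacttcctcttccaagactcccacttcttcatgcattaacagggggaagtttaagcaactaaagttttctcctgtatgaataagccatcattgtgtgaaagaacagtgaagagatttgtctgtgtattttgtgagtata
Timp1 (chrX:20869916-20870215): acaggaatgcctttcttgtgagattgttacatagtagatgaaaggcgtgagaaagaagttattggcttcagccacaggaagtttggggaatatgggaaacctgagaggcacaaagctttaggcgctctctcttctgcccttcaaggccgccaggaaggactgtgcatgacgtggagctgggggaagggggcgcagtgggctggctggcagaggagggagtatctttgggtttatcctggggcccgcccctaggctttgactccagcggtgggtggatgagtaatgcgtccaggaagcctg
The match began 35 bases before the start of Mmp13 and 44 bases before the downstream start of Mmp12. The upstream Mmp12 window and the Timp1 window held none, nor did those of Mmp14, Timp2 and Timp3. Windows of Mmp2, Mmp9 and Mmp19 were not analysed here. A match of letters is a description of the sequence and not a bound site.

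Each array spot covers a small disc of tissue that can hold several cells, and its 3′ transcripts were counted as unique molecular identifiers (UMIs). Sections held 1490 to 3466 spots and 31292663 to 67045372 UMIs after spots with few genes or many mitochondrial transcripts were left out. Levels below are CPM, the UMIs of a gene per 1e6 UMIs of the section, scaled between sections by the trimmed mean of M values (TMM). In such sums fewer cells of a type and less RNA per cell cannot be told apart. The summed hepatocyte markers stood at 116667 to 121832 CPM at 0 h and were lower, at 84853 to 113340, in all 8 injured sections. The 2 sections at 36 h stood apart from each other. The summed mesenchymal markers (Pdgfrb, Col1a1, Col1a2, Col3a1, Des, Acta2 and Dcn) were at 229 CPM in section A and 566 in section B, beside 250 to 286 at 0 h, 198 to 245 at 24 h and 674 to 1469 at 48 h. The sections at 24 h differed in neutrophil markers (Cxcr2, S100a8, S100a9, Ly6g and Retnlg), whose sum was 38.4 in A and 136 in B, against 1.98 to 7.88 at 0 h. For the members, levels in these sections are given separately.

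Against uninjured liver Mmp12, Mmp13 and Timp1 were higher at each time point, Mmp2 was lower at 24 h, Mmp9 was higher at 24 and 48 h, Timp2 was higher at 48 h, and Mmp14, Mmp19 and Timp3 did not pass at any. At 24 h, 4 members were higher (Mmp9, Mmp12, Mmp13 and Timp1) and 1 was lower (Mmp2) by edgeR's quasi-likelihood test at a Benjamini-Hochberg adjusted p under 0.05. Over all 14821 genes tested 41.7% passed, 23.1% higher and 18.6% lower. At 36 h, 3 were higher (Mmp12, Mmp13 and Timp1) and none was lower, where 29.2% of all genes passed, 16.8% higher and 12.4% lower. At 48 h, 5 were higher (Mmp9, Mmp12, Mmp13, Timp1 and Timp2), where 44.2% of all genes passed, 23.3% higher and 20.9% lower. The median log2 change of the 9 members was 0.67 at 24 h, 0.67 at 36 h and 1.08 at 48 h, beside 0.05, 0.05 and 0.01 over all genes tested. These comparisons share the 3 sections at 0 h. Mmp12 and Timp1, with 26 and 35 UMIs over those sections, were abundant enough to test only through the injured sections. They could thus come out higher but not lower, and the members' counts and medians partly reflect that filter. The 9 members were also chosen with earlier results of these data known. On total counts in place of TMM the median of all genes lay 0.33, 0.44 and 0.53 higher on the log2 scale at 24, 36 and 48 h, and the members then called were 7, 5 and 7, with Mmp19 and Timp3 called higher at 24 and 36 h and Mmp2 and Mmp19 at 48 h. On that scale 41.1%, 47.7% and 60.2% of all genes were called higher and 10.0%, 2.98% and 4.04% lower.

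**Figure D1:**
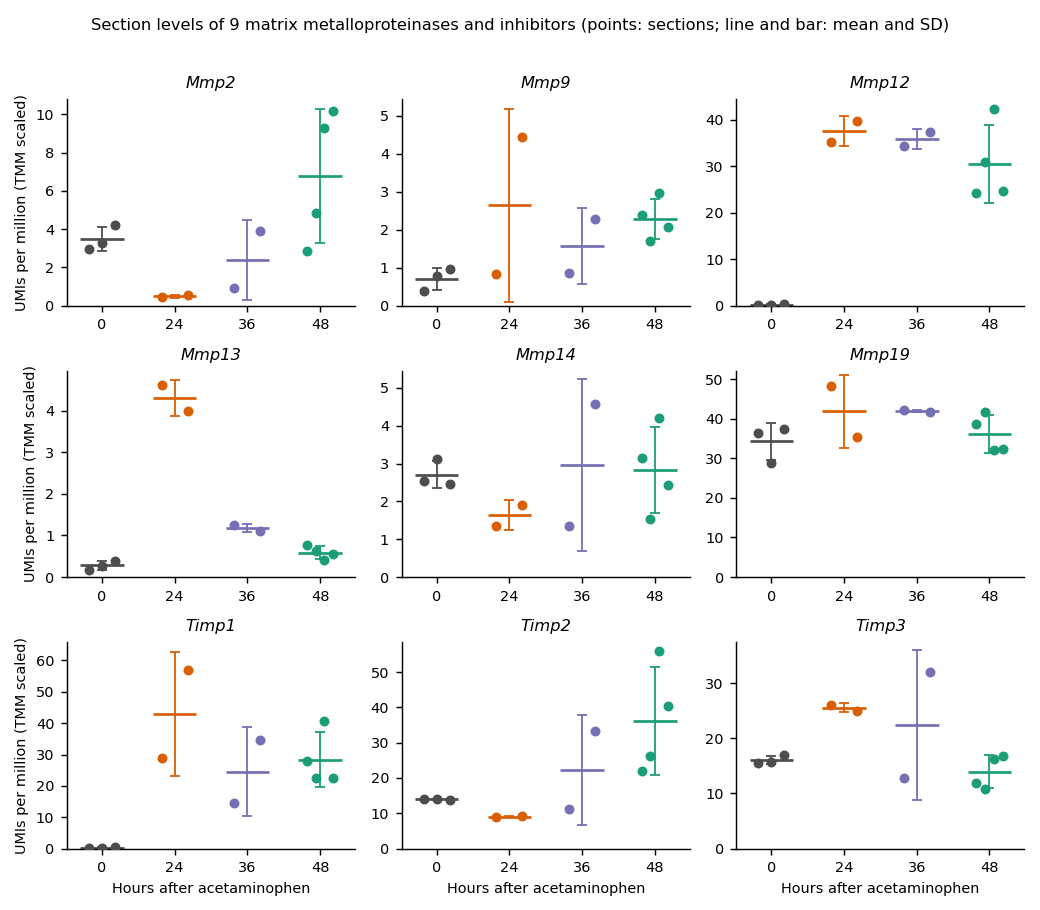
Level of each gene in the 11 sections, in CPM after TMM scaling (y axis, from 0), against hours after acetaminophen (x axis, where 0 is uninjured). Points are sections, and lines and bars are the mean and SD of each time point. Mmp12 and Timp1 were below 0.5 in every section at 0 h and above 14 in every injured section, while Mmp19 stayed between 28.9 and 48.3.

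Mmp12, the macrophage elastase, stood at 0.132, 0.110 and 0.395 CPM in the 3 uninjured sections, from 6, 6 and 14 UMIs. It was at 35.3 and 39.8 at 24 h, 34.3 and 37.3 at 36 h, and 24.3, 30.8, 42.3 and 24.8 at 48 h. Every injured section lay far above every uninjured one, and the injured time points overlapped. The log2 change was 7.57 ± 0.38 (SE) at 24 h, 7.50 ± 0.38 at 36 h and 7.27 ± 0.37 at 48 h, with adjusted p-values of 4.49e-06, 6.99e-06 and 2.56e-06. Because only 26 UMIs were counted at 0 h, the ratio of counts itself carries a 95% interval of 131 to 296 at 24 h for a value of 193, which covers counting error only. No test between injured time points passed (adjusted p from 0.381 to 0.896), so their order by level, 24 h, 36 h and 48 h, was not resolved.

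Timp1, a secreted inhibitor that is a widely used serum marker of liver fibrosis, followed the same course. It measured 0.264, 0.147 and 0.424 CPM at 0 h, 28.9 and 56.9 at 24 h, 14.4 and 34.7 at 36 h, and 27.8, 22.5, 40.8 and 22.4 at 48 h. Every injured section lay above every uninjured one, and the injured time points overlapped. The log2 change was 7.33 ± 0.57, 6.53 ± 0.57 and 6.74 ± 0.54 at 24, 36 and 48 h (adjusted p = 3.24e-05, 0.000208 and 2.73e-05). Tests between the injured time points did not pass (adjusted p from 0.244 to 0.814).

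Mmp13, the main interstitial collagenase of rodents, rose early and fell back. It was at 0.176, 0.276 and 0.395 CPM at 0 h, 4.60 and 3.99 at 24 h, 1.25 and 1.11 at 36 h, and 0.767, 0.624, 0.402 and 0.563 at 48 h. All 4 groups lay apart without overlap, and section C at 48 h lay closest to uninjured liver. Log2 changes were 3.94 ± 0.34, 2.08 ± 0.35 and 1.08 ± 0.31 against 0 h (adjusted p = 3.27e-05, 0.00252 and 0.0173). It was the single member that changed between 24 and 36 h, falling by 1.86 ± 0.35 (adjusted p = 0.00951), in a comparison where 15.6% of all genes passed, 7.04% higher and 8.58% lower. The fall from 24 to 48 h was 2.86 ± 0.28 (adjusted p = 0.000273). The value at 48 h against 0 h rested on few UMIs (28 to 53 per section) and lost its call without section 2 or 3 at 0 h (adjusted p = 0.0737 and 0.0574). The fall from 24 to 36 h lost its call without section A at 24 h (adjusted p = 0.0588), and with the section letter as a replicate block (adjusted p = 0.0705).

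The gelatinases, which digest denatured collagen and basement membrane collagen, moved apart from each other. Mmp2, mainly a product of fibroblasts and stellate cells, was at 2.97, 3.26 and 4.21 CPM in uninjured liver and only 0.430 and 0.542 at 24 h. It was at 0.898 and 3.88 at 36 h, and at 2.87, 4.83, 9.30 and 10.2 at 48 h. Both sections at 24 h lay below all others, and 3 of 4 sections at 48 h lay above all others. The log2 change was -2.85 ± 0.74 at 24 h against 0 h (adjusted p = 0.0119), and 3.82 ± 0.74 at 48 h against 24 h (adjusted p = 0.00387). At 48 h against 0 h it was 0.97 ± 0.50 and did not pass (adjusted p = 0.138). The fall at 24 h came from 20 and 17 UMIs and lost its call when either section was left out (adjusted p = 0.0918 without A and 0.0624 without B). In order of mean level, 48 h (6.79 ± 3.50 SD, n = 4) and 0 h (3.48 ± 0.65, n = 3) were not resolved, nor were 0 h and 36 h.

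Mmp9, mainly a product of neutrophils and macrophages, was at 0.374, 0.773 and 0.960 CPM in uninjured liver and 0.839 and 4.43 at 24 h. It was at 0.869 and 2.28 at 36 h, and at 2.37, 1.69, 2.96 and 2.08 at 48 h. The 4 sections at 48 h lay above the uninjured ones, but section A at 24 h and section A at 36 h lay among them. The log2 change was 1.89 ± 0.65 at 24 h, 1.18 ± 0.66 at 36 h and 1.71 ± 0.57 at 48 h (adjusted p = 0.0381, 0.203 and 0.0318). Without section B at 24 h the first value was 0.26 (adjusted p = 0.780), and the call at 24 h held in only 8 of 16 alternatives. The call at 48 h was lost without any 1 of the 3 uninjured sections or without section A or C at 48 h (adjusted p up to 0.116). The summed neutrophil markers were at 38.4 in section A and 136 in section B at 24 h, and at 20.9 and 60.4 at 36 h, higher in the same sections as Mmp9. At 48 h they were at 60.2, 58.6, 105 and 29.7 in sections A to D. Both the sum and Mmp9 were highest in C, but the sum was lowest in D and Mmp9 in B. Their part in the Mmp9 values was not tested.

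Mmp14, a membrane-anchored protease that activates pro-Mmp2 together with Timp2, did not pass in any comparison between time points when all sections were fitted together. It was at 2.53, 3.11 and 2.46 CPM at 0 h, 1.35 and 1.91 at 24 h, 1.36 and 4.57 at 36 h, and 3.16, 1.53, 4.22 and 2.43 at 48 h. Both sections at 24 h lay below the uninjured ones, with a log2 change of -0.74 ± 0.51 (adjusted p = 0.268). With these time points fitted alone it was -0.78 and passed (adjusted p = 0.0252). Mmp19, a less studied member expressed by many tissues, was at 36.5, 28.9 and 37.4 at 0 h, 48.3 and 35.3 at 24 h, 42.2 and 41.7 at 36 h, and 38.6, 41.7, 32.1 and 32.4 at 48 h. Its log2 changes of 0.29 ± 0.17, 0.29 ± 0.17 and 0.08 ± 0.14 did not pass (adjusted p = 0.192, 0.212 and 0.673). On total counts they were 0.62, 0.73 and 0.61 (adjusted p = 0.0100, 0.00467 and 0.00355), where the median of all genes was 0.37, 0.49 and 0.54.

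Timp2, which inhibits most metalloproteinases and also takes part in the activation of pro-Mmp2, was also lowest at 24 h and highest at 48 h. It was at 14.1, 14.0 and 13.8 CPM at 0 h, 8.99 and 9.12 at 24 h, 11.2 and 33.2 at 36 h, and 22.1, 26.3, 56.0 and 40.3 at 48 h. Both sections at 24 h lay below the uninjured ones and the sections at 48 h above them, while the 2 sections at 36 h lay on either side. At 48 h it was 1.38 ± 0.38 higher on the log2 scale than at 0 h (adjusted p = 0.0156) and 1.999 ± 0.47 higher than at 24 h (adjusted p = 0.00957). The lower level at 24 h, -0.62 ± 0.46, did not pass (adjusted p = 0.308), but it did with the sections at 0 and 24 h fitted alone (-0.66, adjusted p = 0.00144). The call against 24 h was lost without either section at 24 h (adjusted p = 0.0769 and 0.0667). Timp3, which is held in the matrix and also inhibits ADAM17 and several ADAMTS proteases, was at 15.5, 15.8 and 16.9 at 0 h, 26.1 and 25.0 at 24 h, 12.9 and 32.1 at 36 h, and 11.8, 10.9, 16.2 and 16.7 at 48 h. Both sections at 24 h lay above the uninjured ones (0.67 ± 0.31, adjusted p = 0.109), a value that passed when 36 h section A or section B was left out (adjusted p = 0.00995 and 0.0161) and with the 2 time points alone (adjusted p = 0.00110). From 24 to 48 h it fell by 0.88 ± 0.29 (adjusted p = 0.0401), a call that was lost without any 1 of 7 sections (the 3 at 0 h, the 2 at 24 h, and A and B at 48 h).

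Between 24 and 48 h, 2 members were higher (Mmp2 and Timp2) and 2 were lower (Mmp13 and Timp3), where 34.1% of all genes passed, 16.2% higher and 17.8% lower (25.9% and 9.10% on total counts). Between 36 and 48 h none of the 9 passed by edgeR, where 3.05% of all genes did. At an unadjusted p under 0.05 it was 3 members, and by DESeq2 1 member passed (Mmp13, -0.99, adjusted p = 0.0414). In the sections where Mmp2 and Timp2 were highest the summed mesenchymal markers were highest too, at 1469 and 1412 CPM in sections C and D at 48 h against 674 and 852 in A and B. At 36 h all 3 were higher in section B than in section A. Mmp2 did not follow this sum everywhere. In section A at 48 h it was at 2.87, below the 2.97 to 4.21 at 0 h, where the sum was 250 to 286. At 24 h it was at 0.430 and 0.542, with sums of 245 and 198. The summed quiescent stellate markers (Lrat, Reln, Ecm1, Hgf and Rgs5) were at 341 to 442 at 0 h. They were at 192 and 162 at 24 h, 195 and 283 at 36 h, and 238 to 302 at 48 h. The part of mesenchymal cell number in these values was not tested.

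To place the genes in the tissue, each section's spots were ranked by a hepatocyte score of 6 markers (Alb, Ttr, Trf, Hp, Hnf4a and Apoa1), and the lowest 10% were called hepatocyte-poor. These 149 to 346 spots per section had a neighbour of their own kind in 65.4% to 83.5% of cases. No member is in that score. At 48 h hepatocyte-poor spots held more transcript of all 5 scar-associated macrophage markers, all 4 mononuclear phagocyte markers, 6 of 7 mesenchymal markers and 4 of 4 neutrophil markers tested. Of all genes tested 33.4% were higher there, so the class is not the place of a single cell type. Over whole sections the sum of the scar-associated macrophage markers was no higher after injury, at 303 to 1108 CPM beside 820 to 1394 at 0 h. The most abundant of these 5 genes (Gpnmb, Trem2, Spp1, Cd9 and Fabp5) weigh most in that sum. It does not show how each marker changed. In section 2 at 0 h 1 of the 5 had no UMI, and in the injured sections all were found. Other cell type markers were scored too and are not given for this class. Counts were summed per section and class, and compared within sections. Because the class was set by low hepatocyte transcript, a gene expressed mainly in other cells can be higher there by composition alone. The share of all genes that passed mixes genes of hepatocytes and of other cells, so it does not account for this.

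At 48 h all 9 members passed between hepatocyte-poor and other spots, 8 higher and Mmp19 lower, where 64.2% of all 14480 genes tested passed, 33.4% higher and 30.8% lower. At 24 h, 6 were higher (Mmp9, Mmp12, Mmp13, Timp1, Timp2 and Timp3) and Mmp19 was lower, where 27.4% of all genes passed, 10.9% higher and 16.5% lower. At 36 h, 4 were higher (Mmp9, Mmp12, Timp1 and Timp2) and Mmp19 was lower, where 29.1% of all genes passed, 13.2% higher and 15.9% lower. At 0 h, 2 were higher (Mmp2 and Timp3), where 3.4% of all genes passed, 1% higher and 2.4% lower. The median log2 difference of the 9 members was 0.20, 0.90, 0.80 and 1.17 at 0, 24, 36 and 48 h, beside -0.05, -0.04, 0.00 and 0.03 over all genes tested. On total counts 2.29%, 32.6%, 35.9% and 63.2% of all genes were called higher in hepatocyte-poor spots and 0.767%, 5.36%, 5.97% and 13.2% lower.

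**Figure D2:**
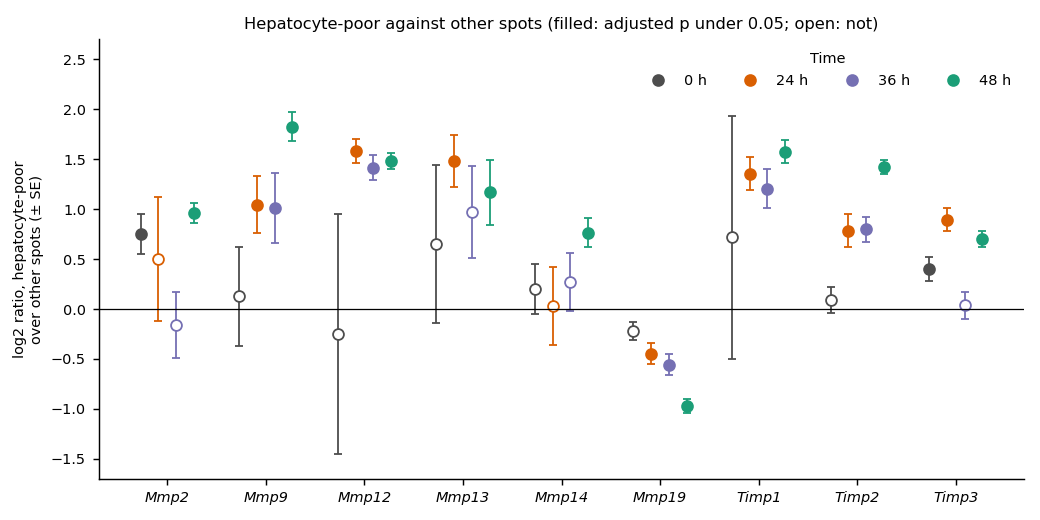
Log2 ratio of hepatocyte-poor to other spots (y axis, ± SE) for each gene (x axis) at the 4 time points (colours); filled points passed at an adjusted p under 0.05 and open points did not. At 48 h the 9 values are filled, 8 above 0 and Mmp19 at -0.97.

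Mmp12 was at 99.5 and 92.7 CPM in the hepatocyte-poor spots of sections A and B at 24 h, against 29.6 and 35.4 in the other spots. At 36 h it was at 97.2 and 74.0 against 28.3 and 35.9. At 48 h it was at 61.9, 76.5, 101 and 61.1 against 20.3, 27.1, 38.6 and 22.2. Hepatocyte-poor spots were higher in each of the 8 injured sections, by 1.58 ± 0.12, 1.42 ± 0.12 and 1.49 ± 0.08 on the log2 scale at 24, 36 and 48 h (adjusted p = 4.18e-10, 2.95e-09 and 3.81e-14). Timp1 was likewise higher in all 8, by 1.35 ± 0.17, 1.21 ± 0.19 and 1.58 ± 0.11 (adjusted p = 5.18e-05, 0.000443 and 5.83e-08). In sections A and B it was at 60.5 and 142 against 27.1 and 49.3 at 24 h, and at 39.3 and 62.5 against 12.2 and 34.3 at 36 h. At 48 h it reached 79.2, 56.1, 96.8 and 57.6 in hepatocyte-poor spots against 21.6, 19.8, 37.3 and 19.7. At 0 h these spots held 0 to 1 UMIs of Mmp12 and 0 to 4 of Timp1 per section, and the difference of their class effects from 0 h did not pass (adjusted p from 0.217 to 0.846).

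Timp2 did not pass between the spot classes in uninjured liver and was higher in hepatocyte-poor spots at each later time. Its level in hepatocyte-poor spots was 15.9, 18.7 and 13.3 CPM at 0 h against 15.5, 15.0 and 15.2 in other spots. It was 13.7 and 17.5 against 9.10 and 8.63 in sections A and B at 24 h, and 22.3 and 53.2 against 10.7 and 33.8 at 36 h. At 48 h it was 55.3, 65.1, 119 and 102 against 18.6, 23.2, 53.3 and 35.8. The log2 difference at 0, 24, 36 and 48 h was 0.09 ± 0.13, 0.79 ± 0.17, 0.80 ± 0.13 and 1.42 ± 0.07 (adjusted p = 0.869, 0.000300, 3.41e-06 and 3.00e-21). The 24 h difference held its call in 16 of 17 alternatives and was 0.58 without section B at 24 h. The 48 h difference exceeded that at 0 h by 1.33 ± 0.14 (adjusted p = 2.49e-10). Those at 24 and 36 h exceeded it by 0.70 ± 0.21 and 0.71 ± 0.18 (adjusted p = 0.0186 and 0.00395). The 24 h value held its call in 12 of 17 alternatives and the 36 h value in 15 of 17. The 48 h value held in 17 of 17 alternatives. Without section B at 24 h the 24 h value was 0.50, and without section A at 36 h the 36 h value was 0.55. With Cyp2e1 added to the hepatocyte score these 2 values were 0.57 and 0.37 and did not pass (adjusted p = 0.105 and 0.269). The injured time points were not tested against each other.

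Mmp9 was higher in hepatocyte-poor spots at 48 h. Its level was 6.73, 5.27, 8.35 and 6.02 CPM in hepatocyte-poor spots and 1.86, 1.33, 2.50 and 1.73 in other spots, with no overlap. The log2 difference was 1.82 ± 0.15 (adjusted p = 3.67e-14), and it exceeded that at 0 h by 1.70 ± 0.46 (adjusted p = 0.00263), though at 0 h those spots held only 2, 5 and 2 Mmp9 UMIs in the 3 sections. In sections A and B it was at 1.17 and 9.44 against 0.863 and 4.07 at 24 h, and at 1.18 and 5.01 against 0.916 and 2.12 at 36 h. The log2 difference at 24 h was 1.05 ± 0.29 (adjusted p = 0.00515) and at 36 h 1.01 ± 0.35 (adjusted p = 0.0247), but without section B of the respective time point these were 0.43 (adjusted p = 0.741) and 0.37 (adjusted p = 0.799). Mmp13 was higher in hepatocyte-poor spots by 1.48 ± 0.26 at 24 h and 1.17 ± 0.33 at 48 h (adjusted p = 2.25e-05 and 0.00202), from 67 and 28 UMIs in the 2 sections at 24 h and 7 to 13 per section at 48 h. The 24 h value was 1.04 without section A (adjusted p = 0.103).

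Mmp2 and Timp3 were the members already higher in hepatocyte-poor spots of uninjured liver, by 0.75 ± 0.20 and 0.40 ± 0.12 (adjusted p = 0.0220 and 0.0444), in 3 of 3 sections each. At 0 h the class also held less of all 12 portal genes and more of 10 of 23 central genes, so it was not neutral to lobular zone. Both calls were lost without any 1 of the 3 sections, and with Cyp2e1 added to the hepatocyte score the values were 0.21 and 0.32 (adjusted p = 0.888 and 0.630). At 48 h Mmp2 was higher by 0.96 ± 0.10 (adjusted p = 9.03e-11), Timp3 by 0.70 ± 0.08 (adjusted p = 1.15e-09) and Mmp14 by 0.76 ± 0.15 (adjusted p = 2.06e-05), each in 4 of 4 sections. Timp3 was also higher at 24 h, by 0.90 ± 0.11 (adjusted p = 5.20e-08). This exceeded its value at 0 h by 0.49 ± 0.16 (adjusted p = 0.0314), but by 0.30 without section B at 24 h. That call held in 11 of 17 alternatives and was lost by DESeq2 (0.52, adjusted p = 0.0674). At 36 h its 2 sections were at 13.5 and 37.2 CPM in hepatocyte-poor spots and 14.2 and 34.9 in others, and did not pass (0.04 ± 0.13, adjusted p = 0.870), except on total counts (0.38, adjusted p = 0.0183).

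Mmp19 ran against the others. With TMM scaling it was lower in hepatocyte-poor spots in each of the 11 sections. Without that scaling section 4 at 0 h was not lower. Its hepatocyte-poor spots held 8.23% of the Mmp19 UMIs and 8.11% of all UMIs. At 48 h its level there was 20.8, 22.8, 21.3 and 21.5 CPM against 46.2, 48.7, 37.8 and 37.6 in other spots, with no overlap. The log2 difference at 0, 24, 36 and 48 h was -0.22 ± 0.09, -0.45 ± 0.10, -0.56 ± 0.11 and -0.97 ± 0.07 (adjusted p = 0.236, 0.000947, 5.61e-05 and 1.08e-15). The 48 h difference lay 0.75 ± 0.12 below that at 0 h (log2 -0.75, adjusted p = 1.03e-06). On total counts the calls at 24 and 36 h were lost (-0.10 and -0.22, adjusted p = 0.490 and 0.109) and that at 48 h was kept.

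For the difference between the class effects at each time and at 0 h, 2 members passed at 24 h (Timp2 and Timp3, both higher), where 14.1% of all genes did, 5.5% higher and 8.56% lower. At 36 h it was 1 (Timp2), where 16.1% of all genes passed, 7.17% higher and 8.97% lower. At 48 h it was 3 (Mmp9 and Timp2 higher, Mmp19 lower), where 38.5% of all genes passed, 18% higher and 20.5% lower (39.1% and 11.4% on total counts).

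The levels fell within a few spots of a hepatocyte-poor spot. Here they are CPM of the same spots' total, with no TMM scaling. Over the 4 sections at 48 h Mmp12 averaged 105 in hepatocyte-poor spots, 44.5 in spots 1 array step away, 18.1 at 2 steps and 17.3 at 3 or more. Timp1 averaged 101, 38.2, 16.6 and 18.7, and Timp2 averaged 119, 44.2, 25.7 and 28.2. All 3 were highest in the hepatocyte-poor spots themselves in each of the 8 injured sections. Mmp9 dropped from 9.16 to 2.47, 1.54 and 1.47 at 48 h. Mmp19 rose instead, from 30.0 to 39.8, 45.5 and 43.1, and was lowest in the hepatocyte-poor spots in 4 of 4 sections. At 0 h Timp2 was flat, at 12.5, 10.9, 10.2 and 11.7.

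**Figure D3:**
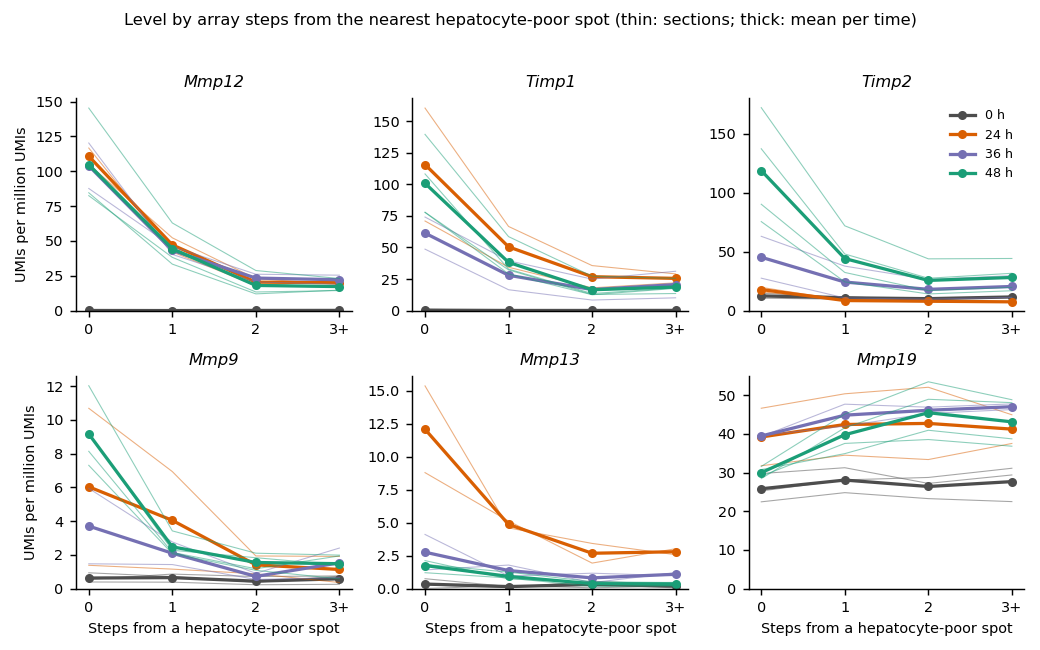
Level in CPM without TMM scaling (y axis, from 0) by array steps from the nearest hepatocyte-poor spot (x axis, where 0 is the hepatocyte-poor spots); thin lines are sections, and thick lines with points are the mean of a time point. Mmp12 and Timp1 drop over the first 2 steps after injury, and Mmp19 is lower at step 0 than beyond it at 48 h.

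The hepatocyte-poor 10% of spots carried 28.7% to 35.6% of the Mmp12 UMIs of a section at 48 h, 28.6% to 39.9% of Timp1, 25.7% to 35.0% of Timp2 and 34.0% to 39.6% of Mmp9. The same spots carried 6.46% to 7.998% of Mmp19 and 9.73% to 11.7% of all UMIs. At 0 h their share was 7.99% to 10.4% for Timp2 and 7.65% to 8.23% for Mmp19. Their share of all UMIs at 0 h was 7.98% to 8.97%, close to both. Transcripts also lay off the tissue, where Mmp12 stood at 51.5 to 221 UMIs per 1000 spots in injured sections, up to 45.5% of its level on tissue. Both upper values came from section A at 48 h, whose spots off the tissue had a median of 10293 UMIs, 58.8% of that on tissue. In the other injured sections Mmp12 was at 51.5 to 166 there. The part of such spread in the gradient was not tested.

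**Figure D4:**
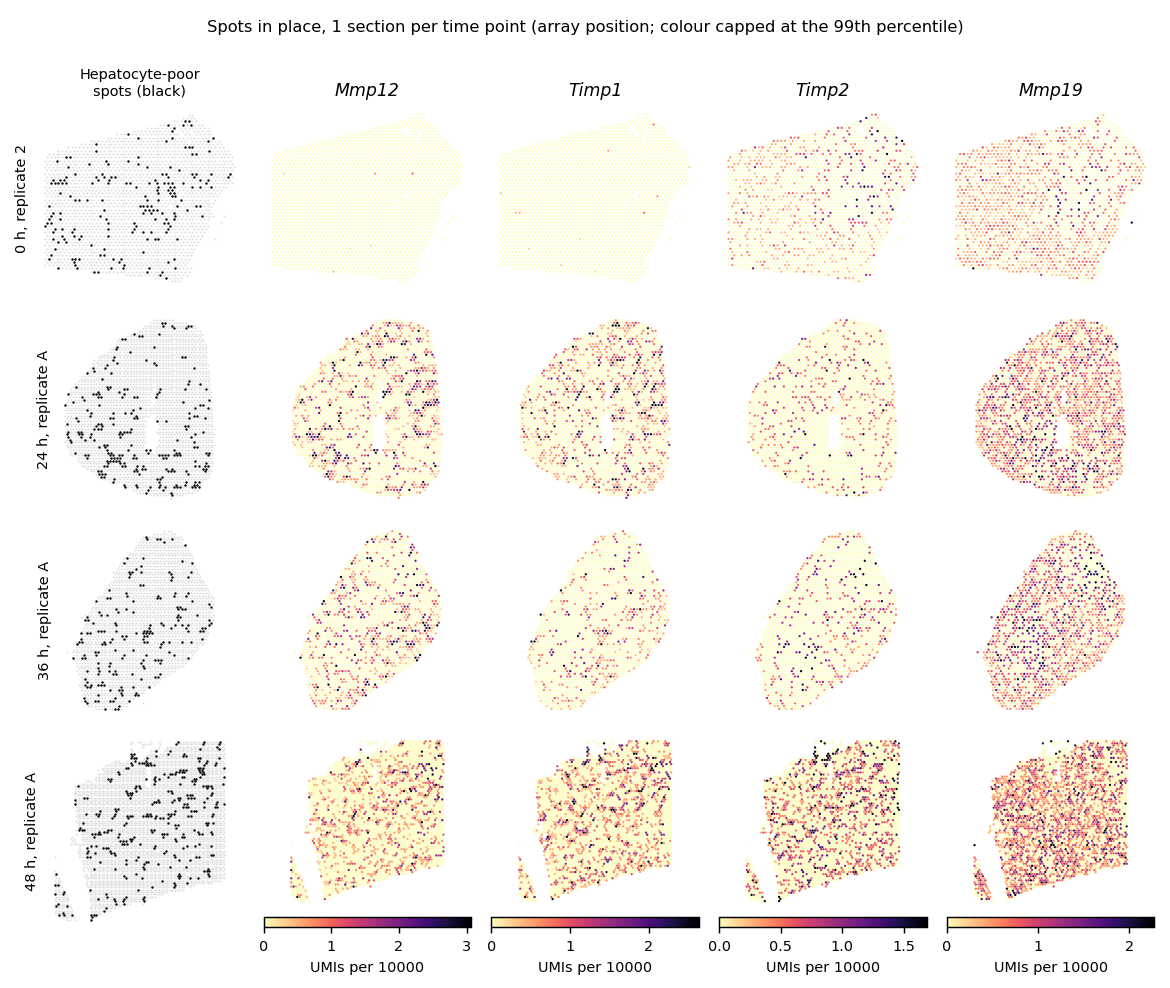
Spots of 1 section per time point (rows, section 2 at 0 h and section A otherwise) at their array position, with hepatocyte-poor spots in black (left column) and UMIs per 10000 UMIs of Mmp12, Timp1, Timp2 and Mmp19 in colour, with the colour scale capped at high values. Mmp12 and Timp1 are scarce at 0 h and speckle the injured sections, where hepatocyte-poor spots held 31.0% and 23.0% of their UMIs in section A at 24 h, and Mmp19 is spread over every section.

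In uninjured liver, spots on the portal side of the lobule (lowest by central minus portal gene score) were compared with an equal number on the central side (highest). Spots in between were left out. The central and portal genes were the study's own mouse spatial lists, drawn on its data, so the zones are not independent of these data. No member is in either list. Only 5 members had enough counts to be tested. Of these 1 was higher on the portal side (Timp3) and 1 lower (Mmp2), where 24.7% of 12020 genes passed, 12.7% higher and 12% lower. Timp3 was at 15.9, 16.8 and 14.8 CPM on the portal side against 11.4, 9.91 and 13.2 on the central side (0.50 ± 0.09, adjusted p = 4.51e-05). Mmp2 was at 1.76, 2.30 and 2.42 against 2.73, 2.98 and 4.35 (-0.60 ± 0.19, adjusted p = 0.0133), a call that was lost without section 4 (adjusted p = 0.153) and by DESeq2 (adjusted p = 0.330). Mmp14, Mmp19 and Timp2 did not pass (adjusted p from 0.176 to 0.845).

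The share of spots with at least 1 UMI was compared after each spot had been thinned to 5000 UMIs, so that depth did not set it. Mmp12 was found in 0.0377% to 0.193% of spots in uninjured sections and in 10.4% to 18.9% in injured ones. Timp1 went from 0% to 0.193% of spots to 7.34% to 19.6%. In the section with no Timp1 spot the limit that a count of 0 allows was 0.113% of 2653 spots. Mmp19 was in 11.1% to 13.2% of spots at 0 h and 16.3% to 21.1% after injury. For these 3 no injured section overlapped an uninjured one, and the exact permutation test of 8 against 3 sections (two-sided) gave its smallest possible p of 0.00606. Without thinning the Mmp19 shares overlapped (p = 0.0909 by the same exact test). Thinning fixes the total, so the Mmp19 rise is on the total-count scale, where the median of all genes also lay higher. Mmp9 was in 0.207% to 0.483% of spots at 0 h and 0.477% to 2.29% after injury, with section A at 24 h among the uninjured ones (exact permutation p = 0.0364), and for the other 5 members p was 0.0788 or more. These 9 p-values are unadjusted.

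Across spots of single sections, the 9 genes were weakly related to each other. At 48 h the median Pearson correlation over the 4 sections was 0.13 for Timp1 with Timp2, 0.12 for Mmp12 with Timp2 and 0.11 for Mmp12 with Timp1, and below that for the other pairs. The genes most like Mmp12 across spots were Fth1 (median r = 0.32), Ftl1 (0.28) and Lgals3 (0.28), which encode the ferritin chains and galectin-3. For Timp1 they were Lyz2 (0.28), a myeloid lysozyme, Ftl1 (0.28) and Tmsb4x (0.28). For Timp2 they were Tmsb4x (0.28), Col1a2 (0.28) and Lyz2 (0.28). For the remaining members the highest median r was 0.11 or less, and 0.06 for Mmp19, and none of these is a finding. Timp1 and Timp2 followed the mesenchymal marker score (median r = 0.34 and 0.32 at 48 h), the mononuclear phagocyte score (0.30 and 0.28) and the scar-associated macrophage score (0.28 and 0.26). For Mmp12 these were 0.27, 0.29 and 0.28. These are descriptions over 1489 to 3343 spots a section, which share a library and whose hepatocyte content varies, and carry no test.

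The genes around the 9 moved as follows against 0 h. Over all genes tested 23.1%, 16.8% and 23.3% were higher at 24, 36 and 48 h, and 18.6%, 12.4% and 20.9% lower. Of 19 other metalloproteinases and inhibitors, 11 were abundant enough to test, and 5, 4 and 7 were higher at 24, 36 and 48 h with 1 lower each time. The lower one was Reck, a membrane-bound inhibitor (-2.58, -1.06 and -1.21, adjusted p = 0.000134, 0.0158 and 0.00121), which fell from 3.81 to 6.49 CPM at 0 h to 0.638 to 0.925 at 24 h. The stromelysin Mmp10 had 122 UMIs at 24 h and none at 0 h (at least 70.6-fold higher, against 3 UMIs over the group). The stromelysin Mmp3 had 93 UMIs at 24 h and 1 at 0 h (a ratio of 162, 95% counting interval 28.3 to 6447), and 87 at 36 h (169, 29.6 to 6753). The neutrophil collagenase Mmp8 had 386 UMIs at 48 h and 3 at 0 h (67.5, 22.9 to 329). The list's median log2 change was 1.31, 1.23 and 2.20, and 1.31, 1.23 and 2.12 with Mmp10 set at its bound. A gene had to be abundant in only some of the groups to be tested. Mmp3, Mmp8 and Mmp10, with few or no UMIs at 0 h, could thus come out higher but not lower. The counts of higher genes and the list's median partly reflect that filter.

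Among 14 other pericellular proteases, 9, 10 and 11 were higher and 2, 0 and 0 lower at 24, 36 and 48 h (median 1.14, 1.19 and 1.76). The counts of this and the following lists stand beside 23.1%, 16.8% and 23.3% of all genes higher. Beside the lower counts stand 18.6%, 12.4% and 20.9% of all genes, and the same filter applied. The largest rises were Adamts4, an aggrecanase, at 24 h (5.44 ± 0.58) and Adam8, a sheddase of myeloid cells, at 36 and 48 h (5.46 ± 0.75 and 6.05 ± 0.72). Adam8 went from 0.226 to 0.423 CPM at 0 h to 17.0 to 32.2 at 48 h. The largest fall was Adamts5 at 24 h (-1.75 ± 0.52, adjusted p = 0.0205). In the 11 genes of plasminogen activation and proenzyme handling, 4, 4 and 6 were higher and 2, 1 and 2 lower (median 0.06, 0.59 and 1.40). Lcn2, which binds Mmp9, had the largest rise at 36 and 48 h (6.64 ± 0.95 and 6.22 ± 0.90). The largest fall that passed was Serpine2 at 24 h (-1.18 ± 0.36, adjusted p = 0.0235), and at 48 h it was plasminogen itself, Plg (-0.52 ± 0.09, adjusted p = 0.000885). Of 10 matrix substrates, 4, 7 and 8 were higher and 1, 0 and 0 lower (median 0.55, 1.56 and 2.30). Col4a2, a basement membrane collagen, led at 24 h (1.86 ± 0.29), and Col1a1 led at 36 and 48 h (4.25 ± 0.63 and 6.20 ± 0.64). Col1a1 did not pass at 24 h (1.196 ± 0.62, adjusted p = 0.148), when Eln was the one lower (-1.56, adjusted p = 0.0265).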

How the data were processed

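Unfixed, snap-frozen mouse liver was cryosectioned onto Visium slides. The deposited values are raw UMI counts per spot and gene, made by the authors with Space Ranger 1.0.0 on mm10; their notes also name Seurat 4.1.1. Here, as in the study's methods, spots under 800 genes or over 20% mitochondrial UMIs were left out. The authors' manual removal of isolated spots was not repeated. Counts were summed per section (31292663 to 67045372 UMIs) and fitted with edgeR 4.0.16 (quasi-likelihood, TMM, filterByExpr, Benjamini-Hochberg over all genes) in R 4.3.3, with 11 sections in 1 fit. Spot classes and zones were fitted on sums per section and class, with section as a block. A call is an adjusted p under 0.05. Classes and scores used spots thinned to 2000 UMIs, and shares used 5000. Sections of a time point differed by more than sampling noise (chi-square per degree of freedom 42.1 to 226 in 11 pairs), so none was taken as the same library counted again. This does not make them separate animals. DESeq2 1.42.0, total-count scaling, no filter, 2 time points alone, other class limits, a replicate block and leaving out each section were the alternatives. Scripts were tested on simulated data. The 9 members, the gene lists and the tests were chosen with earlier results of these data known. All 9 members are named. Of each pathway list the genes with the largest rise and fall against 0 h are named, except 1 that is not reported here, and for likeness the 3 most correlated genes among those in at least 5% of spots. Intervals and floors cover counting error only.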

Additional observations from a re-analysis of the deposited data

Results flagged for a closer look

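For 6 values the difference between hepatocyte-poor and other spots departed from that at 0 h by the interaction test. On the log2 scale these were Timp2 at 24 h (0.70), 36 h (0.71) and 48 h (1.33), Timp3 at 24 h (0.49), Mmp9 at 48 h (1.70) and Mmp19 at 48 h (-0.75). The 24 h calls of Timp2 and Timp3 held in 12 and 11 of 17 alternatives, and that of Timp2 at 36 h in 15. In the share of spots with a UMI at 48 h, 1 section lay far from the other 3 for Mmp13 (0.628% in section A) and for Timp1 (19.6% in section C). These were 2 of 27 groups tested, where chance flags about 1 in 20. Spots outside the tissue, used in no comparison above, held more Mmp12 and Timp1 after injury than at 0 h. The median of the 8 injured sections was 95.3 UMIs per 1000 spots for Mmp12, against 0 to 0.442 at 0 h, and 107 for Timp1, against 0.884 to 1.56. These spots had a median of 952 to 10293 UMIs in a section, 4.28% to 58.8% of that on tissue.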

How the results depend on the processing

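Of 49 called member values, none changed direction over 800 alternatives, 733 kept their call and 67, from 19 values, lost it. Of 73 values not called, 35 changed direction in 64 of 1193 alternatives, and 38 alternatives gained a call. On total counts 5 members passed at 36 h against 0 h, and 6 class effects at 48 h differed from 0 h. For 36 h against 24 h, DESeq2 called 3 members, and both the fit of 2 time points alone and the replicate block on section letter called 0. The replicate block called 0 between 36 and 48 h and 4 between 24 and 48 h. The letters are not stated to pair sections. DESeq2 called 1 member for 48 h against 36 h, 1 for the class effect at 0 h, 1 for its difference at 24 h and 1 between zones. With the lowest 5% of spots as the class, 1 was called at 0 h and 0 for the difference at 24 h. With the lowest 20% these were 1 at 0 h, 3 for the difference at 36 h and 5 at 48 h. With Cyp2e1 in the hepatocyte list they were 0 at 0 h, and 1 and 0 for the differences at 24 and 36 h. Leaving out each section gave 3 to 6 members at 24 h, 3 to 5 at 36 h and 3 to 5 at 48 h against 0 h, 0 to 4 between 24 and 36 h, 0 to 1 between 36 and 48 h and 2 to 4 between 24 and 48 h. For the class effect it gave 0 to 2, 5 to 7, 5 to 5 and 9 to 9 at 0, 24, 36 and 48 h, for its differences from 0 h 0 to 2, 0 to 1 and 3 to 4, and between zones 1 to 2. A section left alone in its time point is assumed to vary like the other groups. Of the time-point values not called, those that changed direction against 0 h were Timp3 at 48 h on total counts (0.32) and 6 as sections were left out. At 36 h, Mmp2 ranged from -1.95 without section B to 0.16 without section A, Mmp14 from -0.99 to 0.75, Timp2 from -0.31 to 1.25 and Timp3 from -0.32 to 0.995. At 48 h, Mmp14 ranged from -0.18 without section C to 0.27 without section B, and Mmp19 from -0.035 without section 3 at 0 h to 0.14 without section 4. The class difference of Timp2 at 0 h ranged from -0.059 without section 3 to 0.19 without section 4, and that of Timp3 at 36 h from -0.074 without section B to 0.079 without section A. The Mmp14 share of spots moved to -0.102 percentage points when thinned to 2000 UMIs. The causes were not tested. Low counts limit Mmp2 at 24 h (17 and 20 UMIs a section), Mmp9 at 0 h (17 to 42) and Mmp13 outside 24 h (8 to 53).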
